A study of Mus musculus with 9 samples.

Results

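T cell and NK cell genes were followed in whole tissue of the inguinal white fat pad of mice, measured on 9 Affymetrix Mouse Transcriptome Array 1.0 arrays. The set held 32 genes chosen by name: the CD3 chains, coreceptors, kinases and transcription factors of T cells, and receptors and granule proteins of NK and cytotoxic cells. Of the 32 genes, 29 had an array row that the platform annotation names with that symbol only, out of 30710 genes with such a row. Lck and Tcf7 had no named row, and the row of Foxp3 also names other genes, so these 3 were not measured here. Of the 29, 28 passed the filter on low values and were tested, and Gzmb lay below it. Values are log2 expression as the authors deposited it, on which a difference of 1 is a doubling.

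All mice carried the transgenes Adiponectin-rtTA and TRE-Cre, which together give a Cre recombinase that doxycycline switches on in adipocytes. Every group received doxycycline chow for 28 days from an age of 8 weeks. The controls were Zfp423+/+ and stayed at room temperature, the knockouts were Zfp423loxP/loxP and also stayed at room temperature, and the cold group was Zfp423+/+ and was kept at 6 °C for the final 14 of these days. Each group had 3 arrays. The study asked whether fat that loses Zfp423, a transcription factor that holds adipocytes in the white state, comes to resemble the beige fat of cold-exposed controls. Deletion is aimed at adipocytes, so lymphocytes are outside the cells in which the Cre is expected. No label ties an array to its own mouse, so p-values measure the spread between these arrays only. The label of cold replicate 3 carries another prefix than the rest, and what it stands for is not stated.

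The deposited values ran from 1.84 to 19.93, and the medians of the 9 arrays lay between 5.28 and 5.34. Zfp423 read 7.56 to 8.15 on the knockout arrays and 8.22 to 8.74 on the control arrays, a difference of -0.53 ± 0.20 (SE) that did not pass (limma adjusted p = 0.255), and Ucp1 was higher by 6.90 ± 0.47 (limma adjusted p = 0.00863). Control replicate 3, knockout replicate 3 and cold replicate 2 each lay between the other 2 arrays of the group for 58.2%, 65.6% and 47.9% of the genes tested, and the counts of calls are given without these 3 arrays as well. The number of arrays limits the precision.

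T cells recognise antigen through a receptor whose signal is passed on by the CD3 chains to the kinases Lck and Zap70 and the adaptor Lat. CD4 or CD8 assists as coreceptor, and CD28 and ICOS add costimulation. NK cells carry germline-encoded receptors in place of the T cell receptor and kill with granzymes. Both kinds of lymphocyte reside in the stromal vascular fraction of adipose tissue, and the inguinal pad also surrounds a lymph node, which is packed with naive T cells and B cells. In such bulk tissue, fewer cells of a type and less RNA per cell cannot be told apart.

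The cold arrays held the lowest levels of these genes and 2 of the knockout arrays the highest. For 25 of the 28 tested members, all 3 cold arrays lay below all 6 room temperature arrays, which was so for 11.2% of all genes tested; the exceptions were Gzma, Klrb1c and Ncr1. Knockout replicate 1 was the highest of the 9 arrays for 27 of 28, against 22.5% of all genes, with Gzma as the exception. Knockout replicates 1 and 3 both stood above every control array for 25 of 28 (17.1% of all genes), again without Gzma, Klrb1c and Ncr1. Knockout replicate 2 lay within the range of the controls for 17 of 28 (41.2% of all genes). The order replicate 1, then 3, then 2 among the knockouts held for 26 of 28, all but Gzma and Klrb1c, and for 31.2% of all genes.

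Per array, the median over the 29 measured members stood at 1.24, -0.12 and 0.66 log2 units from the control mean on knockout replicates 1, 2 and 3. The cold arrays stood at -0.63, -0.58 and -0.62, and the control arrays at -0.20, 0.24 and -0.02. The cold group was thus tight and the knockout group wide. The median standard deviation of a member was 0.12 among cold arrays, 0.23 among controls and 0.66 among knockouts, against 0.08, 0.11 and 0.14 over all genes tested. It was larger in knockouts than in controls for 29 of 29 members and for 60.1% of all genes tested.

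**Figure D1:**
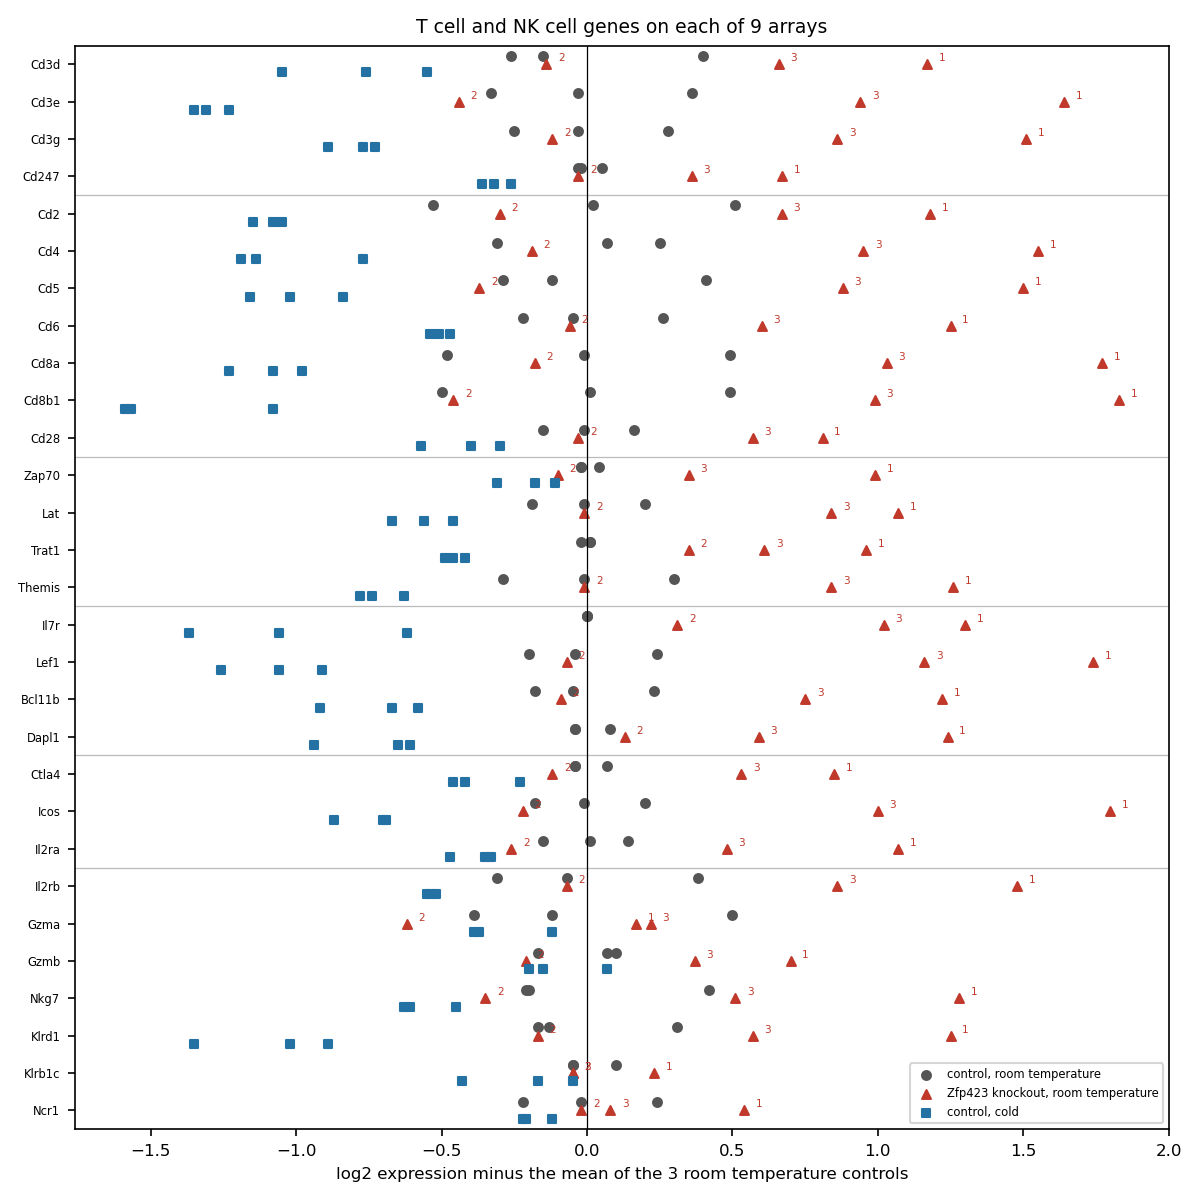
Log2 expression of the 29 measured genes on each array, relative to the mean of the 3 room temperature controls, with grey lines between functional groups and numbers marking the knockout replicates. Blue squares (cold) lie left of the other arrays for most genes, knockout replicates 1 and 3 lie to the right, and knockout replicate 2 lies near the controls.

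The design gave 3 comparisons, each fitted with limma over all 16898 genes that passed the filter. Between knockouts and controls 0 of 28 members passed an adjusted p of 0.05, against 0.367% of all genes, and 4 were higher at an unadjusted p under 0.05 (Lat, Trat1, Il7r and Dapl1), against 8.86% of all genes. The median difference over the 29 measured members was 0.63, beside 0.00 over all genes with a named row, and it ran from -0.08 for Gzma to 0.94 for Lef1. Between cold and control 0 of 28 passed, against 1.51% of all genes in either direction and 0.189% lower, and 9 (Cd2, Cd3e, Cd4, Cd8b1, Trat1, Il7r, Lef1, Klrd1 and Dapl1) were lower at an unadjusted p under 0.05, against 11% of all genes. The median difference was -0.72, from -1.41 for Cd8b1 to -0.10 for Gzmb. Between cold and knockout 3 of 28 passed, all lower in the cold, against 1.15% of all genes called lower and 2.4% in either direction. The median difference was -1.35, from -2.20 for Cd8b1 to -0.22 for Gzma, beside 0.01 over all genes with a named row, and 25 members were lower at an unadjusted p under 0.05 (16.7% of all genes). The comparisons share arrays, so the values are not independent of each other. The fit also uses 1 estimate of the spread of a gene for all 3 groups. Each SE and adjusted p thus carries the spread of the group outside the comparison. With the 2 groups alone, 11 members passed between cold and control (7.97% of all genes) and 1 between cold and knockout (2.08%).

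The 3 members that passed between cold and knockout were Il7r, Trat1 and Dapl1. Their SDs among controls, which enter the shared spread, were 0.00, 0.02 and 0.07, beside a median of 0.23 over the measured members. With the 2 groups alone Trat1 passed (limma adjusted p = 0.0486), and Il7r and Dapl1 did not (0.0604 and 0.081). Il7r encodes the receptor chain through which interleukin 7 keeps naive and memory T cells alive. It read 12.37, 11.38 and 12.09 in knockout replicates 1, 2 and 3, and 9.70, 10.00 and 10.45 in cold replicates 1, 2 and 3. All 3 control arrays held the same deposited value of 11.07, as did 5.77% of all genes tested in that group, so the control spread of Il7r is 0. The groups did not overlap in any pair, with the cold arrays lowest and the knockouts highest. Il7r was 3.72-fold lower in the cold than in the knockouts, a fall by 1.89 ± 0.27 (SE) log2 units (limma adjusted p = 0.0236).

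Trat1 encodes TRIM, a transmembrane adaptor that associates with the T cell receptor. Its arrays read 6.34, 6.37 and 6.37 in controls, 7.32, 6.71 and 6.97 in knockouts, and 5.87, 5.90 and 5.94 in the cold, again with no overlap between groups. It was lower in the cold than in the knockouts by 2.14-fold, at -1.10 ± 0.14 log2 units (limma adjusted p = 0.0166). Against controls it stood at 0.64 ± 0.14 in knockouts and -0.46 ± 0.14 in the cold, and neither passed (limma adjusted p = 0.0871 and 0.142).

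Dapl1 encodes a small protein known as a transcript of naive T cells. It read 7.68, 7.68 and 7.80 in controls, 8.96, 7.85 and 8.31 in knockouts, and 7.07, 6.78 and 7.11 in the cold. The lowest knockout array thus lay just above the highest control array, and the cold arrays lay below both groups. Dapl1 was 2.61-fold lower in the cold than in the knockouts, at -1.39 ± 0.25 (limma adjusted p = 0.0425). Il7r, Trat1 and Dapl1 were also the 3 members whose knockout arrays all lay above the controls, which 9.31% of all genes did.

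These calls depended on single arrays, and so did the number of calls over all genes. Between cold and knockout 0 of the members passed without control replicate 3, knockout replicate 3, cold replicate 1 or cold replicate 2. The same held without the 3 arrays that lay between the others. Of all genes 0.432%, 0.0828%, 0.438%, 0.178% and 0% passed in these settings, in this order, against 2.4% with all arrays. Il7r and Trat1 passed without control replicate 1, control replicate 2 or cold replicate 3 (3.8%, 3.54% and 0.917% of all genes). Dapl1 and Trat1 passed without knockout replicate 1 (1.17%). Without knockout replicate 2, the knockout array with the lowest T cell gene levels, 25 members passed, against 15.9% of all genes, and 4 (Cd3e, Il7r, Lef1 and Trat1) passed between cold and control, against 5.81%. Without knockout replicate 1, Trat1 passed between knockout and control, where 4.94% of all genes did. Trat1 and Dapl1 passed between cold and control, where 4.89% of all genes did, so both counts are near the background. An exact two-sided permutation test of 3 against 3 arrays cannot go below 0.1, and it gave 0.1 for 25 members between cold and control, for 26 between cold and knockout and for 3 between knockout and control. These are the members whose arrays did not overlap, beside 18.1%, 20% and 9.31% of all genes in the same directions.

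**Figure D2:**
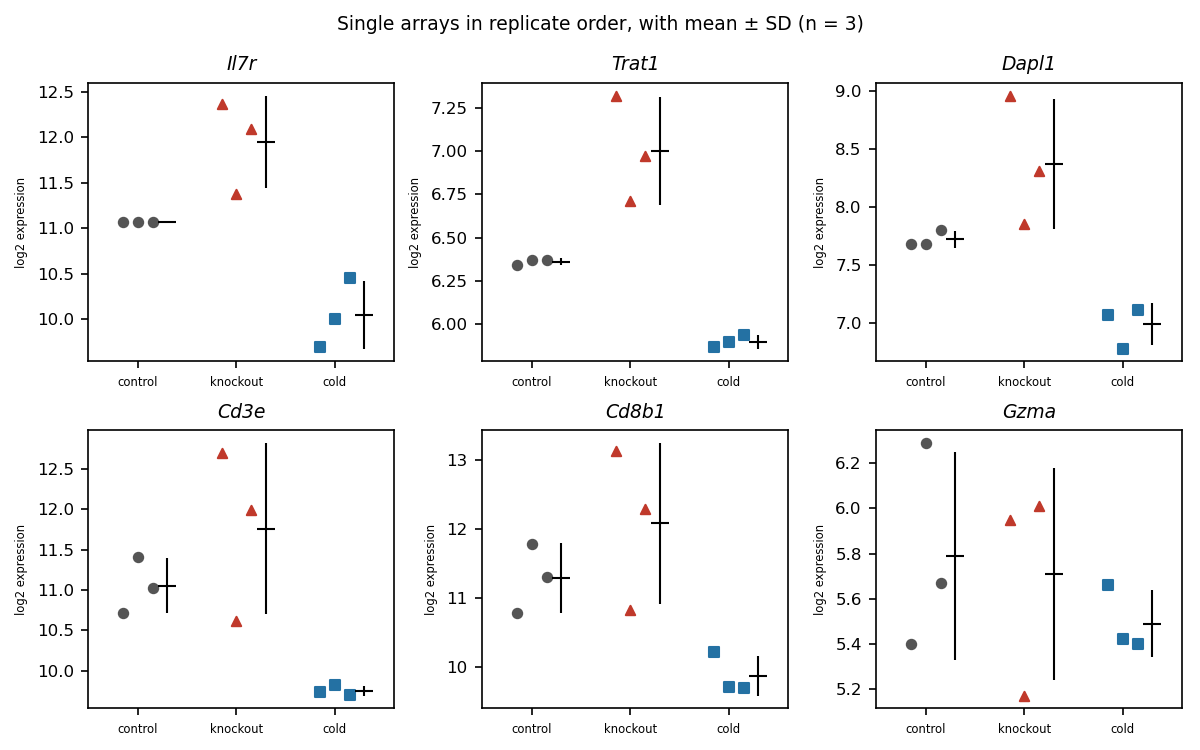
Log2 expression of 6 members on each array in replicate order, with the group mean and SD beside the points (n = 3). The upper panels show the 3 genes that passed between cold and knockout, the lower panels Cd3e and Cd8b1, each with 2 knockout arrays above the controls and 1 near the lowest control, and Gzma, whose groups overlap.

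Promoter sequences are shown for these 3 genes, for Cd3e as a core T cell receptor gene, and for Gzma as the member whose arrays did not follow the others. RefSeq promoters of GRCm38.p6 span 300 bases around the gene start and were listed for 24 of the 32 genes. They lie at chr15:9529827-9530126 (minus strand) for Il7r, chr16:48772013-48772312 (minus) for Trat1, chr2:59484403-59484702 (plus) for Dapl1, chr9:45009562-45009861 (minus) for Cd3e and chr13:113100932-113101231 (minus) for Gzma. Capitals mark matches on either strand to 5 short motifs, of ETS, Runx, TCF and LEF factors, an E-box and a TATA box, whose letters are spelled out beside their counts.
Il7r: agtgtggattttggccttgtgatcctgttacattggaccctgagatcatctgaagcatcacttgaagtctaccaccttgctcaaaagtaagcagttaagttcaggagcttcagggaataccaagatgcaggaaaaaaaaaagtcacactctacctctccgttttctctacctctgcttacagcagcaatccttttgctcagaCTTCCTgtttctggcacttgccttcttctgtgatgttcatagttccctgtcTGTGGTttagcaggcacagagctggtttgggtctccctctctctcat
Trat1: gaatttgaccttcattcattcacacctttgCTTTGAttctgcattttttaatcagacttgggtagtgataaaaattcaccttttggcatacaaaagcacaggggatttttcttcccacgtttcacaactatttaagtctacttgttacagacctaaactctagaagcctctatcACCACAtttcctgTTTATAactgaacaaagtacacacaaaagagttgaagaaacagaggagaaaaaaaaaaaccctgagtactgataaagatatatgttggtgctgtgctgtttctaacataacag
Dapl1: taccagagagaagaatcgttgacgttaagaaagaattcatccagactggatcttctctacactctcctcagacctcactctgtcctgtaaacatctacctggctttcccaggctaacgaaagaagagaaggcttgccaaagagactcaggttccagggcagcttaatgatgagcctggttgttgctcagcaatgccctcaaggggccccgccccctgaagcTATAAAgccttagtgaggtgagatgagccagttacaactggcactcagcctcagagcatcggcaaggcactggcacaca
Cd3e: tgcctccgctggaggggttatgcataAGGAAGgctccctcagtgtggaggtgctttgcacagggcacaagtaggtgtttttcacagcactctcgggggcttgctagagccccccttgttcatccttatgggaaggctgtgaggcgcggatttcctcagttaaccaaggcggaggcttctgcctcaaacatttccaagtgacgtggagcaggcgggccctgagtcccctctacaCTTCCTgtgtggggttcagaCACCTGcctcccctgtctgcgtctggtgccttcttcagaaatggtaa
Gzma: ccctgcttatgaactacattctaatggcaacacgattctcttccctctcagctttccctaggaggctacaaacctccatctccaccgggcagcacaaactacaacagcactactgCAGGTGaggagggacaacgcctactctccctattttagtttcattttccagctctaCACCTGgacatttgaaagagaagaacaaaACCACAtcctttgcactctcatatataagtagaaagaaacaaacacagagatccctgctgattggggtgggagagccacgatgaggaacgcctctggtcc

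The ETS core AGGAAG was in 13 of 24 member promoters (54.2%), against 35.1% of the first listed promoters of 27025 genes. The Runx core TGTGGT was in 9 (37.5%, against 16.9%), among them Il7r, Trat1 and the NK genes Gzma, Gzmb, Nkg7, Klrb1c and Ncr1. The E-box CACCTG was in 9 (37.5%, against 20%), among them Cd3d, Cd3e, Cd3g and Cd247. The TCF and LEF motif CTTTGA was in 6 (25%, against 16.2%), including Cd3d, Cd247 and Trat1, and the TATA box TATAAA was in 5 (20.8%, against 14.2%), including Trat1 and Dapl1. A match is a description of these letters only.

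The chains of the T cell receptor complex stood together. Cd3d, Cd3e and Cd3g, neighbouring genes whose products form the CD3 dimers, and Cd247, the zeta chain, had a median deviation from the control mean of 1.34, -0.13 and 0.76 on knockout replicates 1, 2 and 3 and of -0.66, -0.74 and -0.97 on the cold arrays. Cd3e read 10.72, 11.41 and 11.02 in controls, 12.69, 10.61 and 11.99 in knockouts, and 9.74, 9.82 and 9.70 in the cold. Knockout replicate 1 was the highest and knockout replicate 2 lay below every control, while the cold arrays lay close together and below all others. Cd3e stood at 0.71 ± 0.48 (SE) between knockouts and controls, at -1.30 ± 0.48 between cold and control, and at -2.01 ± 0.48 between cold and knockout (limma adjusted p = 0.509, 0.202 and 0.0695). Its SD was 0.34 in controls, 1.06 in knockouts and 0.06 in the cold, and the SE pools all 3 groups. Cd3d and Cd3g stood at -1.35 ± 0.34 and -1.54 ± 0.37 between cold and knockout, and both missed the threshold (limma adjusted p = 0.0755 and 0.0712). Cd247 had the smallest range of the 4, from 6.58 to 7.61.

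Among coreceptors and costimulators the range over the 9 arrays went from 1.38 log2 units for Cd28 to 3.42 for Cd8b1. Cd8b1, the beta chain of the coreceptor of cytotoxic T cells, read 10.79, 11.78 and 11.30 in controls, 13.12, 10.83 and 12.28 in knockouts, and 10.22, 9.72 and 9.70 in the cold. Between knockout replicates 1 and 2 alone it differed 4.91-fold, and its range over the 9 arrays was the largest of the 29. Its neighbour Cd8a ranged over 3.00 log2 units with the same order of knockout arrays. Cd4, the coreceptor of helper and regulatory T cells, read 9.32, 9.88 and 9.70 in controls, 11.18, 9.44 and 10.58 in knockouts, and 8.44, 8.50 and 8.86 in the cold. Between cold and knockout Cd4 stood at -1.80 ± 0.41, Cd8a at -1.97 ± 0.47 and Cd8b1 at -2.20 ± 0.56, all 3 short of the threshold (limma adjusted p = 0.0654, 0.0701 and 0.0759). Genes of both the CD4 and the CD8 arm were thus highest on knockout replicate 1.

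The adhesion receptor Cd2 and the scavenger receptor family members Cd5 and Cd6, which tune T cell receptor signals, followed the same order. Their differences between cold and knockout were -1.61, -1.68 and -1.10, and between knockouts and controls 0.52, 0.67 and 0.60. Cd28, the main costimulatory receptor, varied less. It read 7.00 to 7.30 in controls, 7.12 to 7.95 in knockouts and 6.57 to 6.85 in the cold. None of the 7 genes of this group passed in any of the 3 comparisons.

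Among kinases and adaptors, Zap70, the kinase recruited to phosphorylated CD3 chains, lay near the low end of the tested range, at 5.63, 5.70 and 5.63 in controls, 6.64, 5.55 and 6.00 in knockouts and 5.35, 5.55 and 5.48 in the cold. Its difference between cold and control, -0.20 ± 0.24, was within its error (limma adjusted p = 0.678). Lat, the scaffold that Zap70 phosphorylates, read 9.09, 9.48 and 9.27 in controls, 10.35, 9.27 and 10.12 in knockouts, and 8.72, 8.82 and 8.61 in the cold. Themis, which sets signalling thresholds during thymic selection, stood at -1.41 ± 0.31 between cold and knockout (limma adjusted p = 0.061). Of the 4 genes measured in this group, Trat1 passed.

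Transcription factors of T cell identity were represented by Lef1 and Bcl11b. Lef1, which with Tcf7 maintains naive T cells, had the largest difference between knockouts and controls of all members, 0.94 ± 0.42, and did not pass (limma adjusted p = 0.325). It read 8.72, 9.15 and 8.88 in controls, 10.66, 8.84 and 10.07 in knockouts, and 8.01, 7.86 and 7.65 in the cold. Knockout replicate 2 fell inside the range of the controls, while the other knockouts lay above every control. Bcl11b, needed for commitment to the T lineage, read 9.01, 7.70 and 8.54 in knockouts and 7.12, 7.21 and 6.87 in the cold, with a difference of -1.35 ± 0.31 (limma adjusted p = 0.0656).

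Genes of regulatory and activated T cells were represented by Icos, Ctla4 and Il2ra. Icos, a costimulator induced on activation, read 7.79, 8.17 and 7.96 in controls, 9.78, 7.75 and 8.97 in knockouts, and 7.11, 7.28 and 7.27 in the cold. Knockout replicates 1 and 3 lay above all controls and replicate 2 below them. Ctla4, an inhibitory receptor, and Il2ra, the alpha chain of the interleukin 2 receptor, stood at -0.79 ± 0.22 and -0.82 ± 0.30 between cold and knockout. None of the 3 passed in any comparison. Cd28, Ctla4 and Icos are neighbours in one gene cluster, and the median difference of this group between knockouts and controls was 0.43.

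NK and cytotoxic genes were the least uniform group. Klrd1 (CD94), an NK receptor subunit, read 8.05, 8.53 and 8.09 in controls, 9.48, 8.05 and 8.79 in knockouts, and 7.33, 6.87 and 7.20 in the cold, and its difference of -1.64 ± 0.34 between cold and knockout did not pass (limma adjusted p = 0.0568). Il2rb, the beta chain of the receptors for interleukins 2 and 15, and Nkg7, a granule membrane protein, ranged over 2.03 and 1.91 log2 units. By contrast Gzma, a granzyme, read 5.40, 6.29 and 5.67 in controls, 5.95, 5.17 and 6.01 in knockouts, and 5.66, 5.42 and 5.40 in the cold, with groups that overlapped throughout. Ncr1 (NKp46), the receptor that marks NK cells, read 5.73, 6.19 and 5.92 in controls, 6.49, 5.92 and 6.03 in knockouts, and 5.82, 5.73 and 5.72 in the cold.

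Klrb1c, the NK1.1 antigen, held 1 and the same value of 5.39 on 5 of the 9 arrays and ranged over 0.65 log2 units. Gzmb, below the filter, lay between 4.72 and 5.64. The differences of Gzma, Klrb1c and Ncr1 between cold and knockout were -0.22 ± 0.29, -0.26 ± 0.12 and -0.39 ± 0.17 (limma adjusted p = 0.661, 0.208 and 0.191). These 3 genes and Gzmb had means over the 9 arrays between 4.99 and 5.95, near the filter of 5.31. Ctla4 and Zap70 lay as low, at means of 5.62 and 5.73. Both had all cold arrays below all room temperature arrays and knockout replicate 1 highest. The median difference of the NK and cytotoxic group was 0.29 between knockouts and controls and -0.39 between cold and knockout, beside 0.64 and -1.45 for the receptor chains. Whether the groups of genes differ was not tested.

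**Figure D3:**
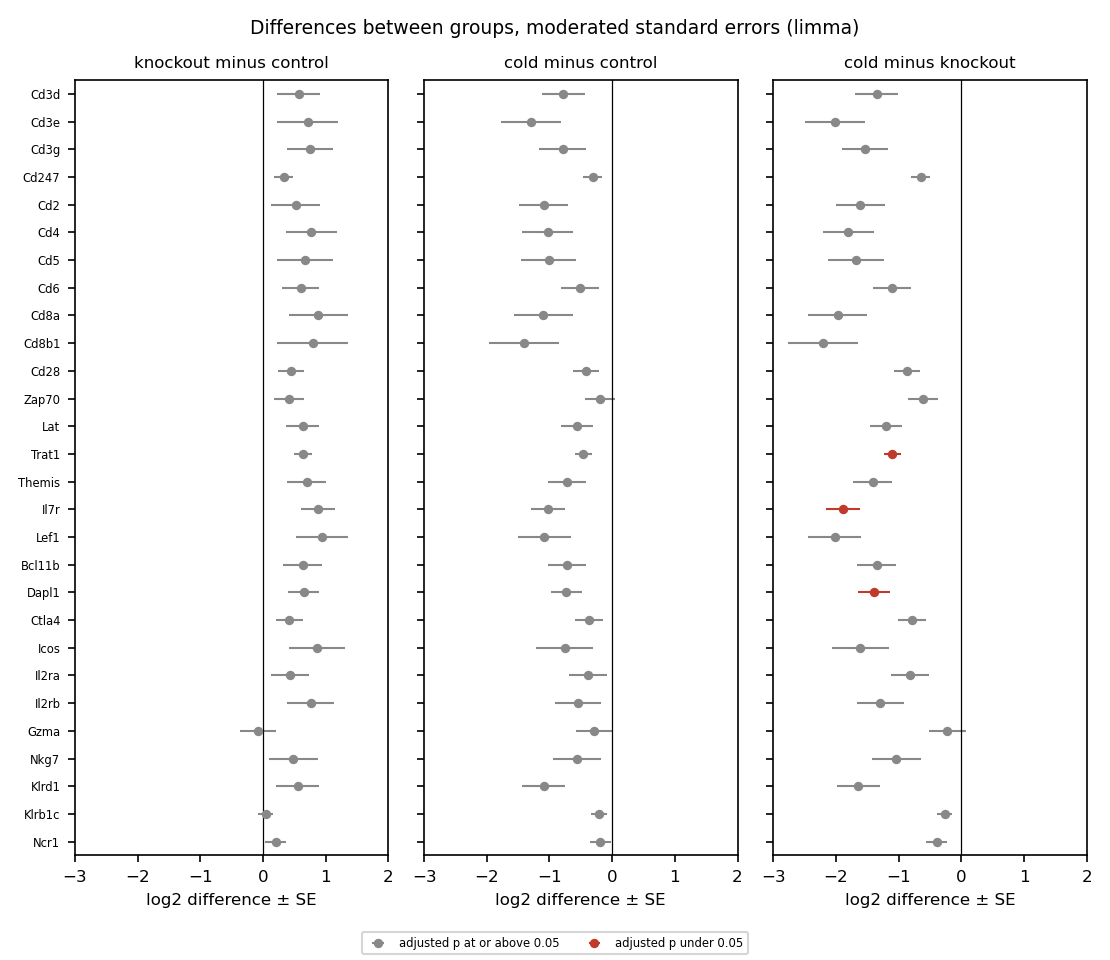
Log2 differences of the 28 tested members between groups with moderated standard errors, for knockout minus control, cold minus control and cold minus knockout. Red points passed an adjusted p of 0.05: Il7r, Trat1 and Dapl1, at -1.89, -1.10 and -1.39 between cold and knockout.

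Further lymphocyte genes were read from lists written from general knowledge. Where a list has 0 genes past the limma threshold, the number at an unadjusted p under 0.05 is given for cold against knockout. In that comparison 16.7% of all genes were lower and 10.1% higher at this unadjusted p. Of 28 measured other genes of T cell receptor signalling, 0 passed in any comparison, and the median differences were 0.34 between knockouts and controls, -0.46 between cold and control and -0.75 between cold and knockout, where 21 were lower unadjusted. The kinases Txk and Fyn and the adaptor Lcp2 (SLP-76) stood at -1.21, -0.82 and -1.56 between cold and knockout (limma adjusted p = 0.0654, 0.094 and 0.102). Of 12 measured genes of naive and recirculating T cells 0 passed, and 9 were lower and 1 higher unadjusted. Ccr7, the receptor that guides naive T cells into lymph nodes, read 10.77, 11.63 and 11.05 in controls, 12.92, 11.05 and 12.16 in knockouts, and 10.05, 10.19 and 10.47 in the cold. S1pr1 and Klf2, which act in lymphocyte exit and are also active in endothelium, stood at -0.09 and -0.23 between cold and knockout. The list's median deviation was 1.06, -0.18 and 0.50 on knockout replicates 1, 2 and 3.

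Of 18 measured effector, memory and resident lymphocyte genes 0 of the 12 tested passed, and 7 were lower unadjusted between cold and knockout. Over all 18, including those below the filter, the median differences were 0.06 between knockouts and controls and -0.31 between cold and knockout. Cd44, Cxcr3 and Cxcr6 stood at 0.03, 0.03 and 0.27 between knockouts and controls. Between cold and knockout they stood at -0.80, -0.19 and -0.87. Of 19 measured other NK cell genes 11 were tested and 1 passed, Cd96, a receptor of T and NK cells, which read 9.20, 8.44 and 8.89 in knockouts and 7.99, 7.58 and 7.36 in the cold. Its difference between cold and knockout was -1.20 log2 units (limma adjusted p = 0.0478), where 1.15% of all genes were called lower. In that comparison 7 of the 11 were lower at an unadjusted p under 0.05 (limma), Cd96 among them. Over all 19 the median differences were 0.15 between knockouts and controls, -0.20 between cold and control and -0.38 between cold and knockout. Of 13 measured other regulatory T cell genes, 11 of them tested, 0 passed, and 7 were lower and 1 higher unadjusted. The 1 higher was Pparg, which read 14.49 to 15.83 over the 9 arrays and also stands in the adipocyte list. The median differences of the regulatory T cell list were 0.06 between knockouts and controls and -0.29 between cold and knockout. Ikzf2, Ikzf4 and Tnfrsf18 stood at -0.40, -0.19 and -0.39 between cold and knockout.

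Markers of other leukocytes were read on the same arrays. Of 19 measured B cell genes 0 passed in any comparison and 3 were lower unadjusted, and the list's median deviation was -0.71, 0.72 and 0.02 on control replicates 1, 2 and 3, and 0.52, -0.72 and -0.05 on the knockouts. On the cold arrays it was -1.50, -0.91 and -0.51. The B cell antigen receptor subunit Cd79a read 9.45, 10.80 and 10.14 in controls, 10.65, 9.11 and 10.08 in knockouts, and 8.21, 8.96 and 9.57 in the cold, and Ms4a1 (CD20) and Cd79b had the same order of arrays within each group. The log2 of the summed level of the B cell list ran from 13.98 to 15.59 in controls, 13.91 to 15.42 in knockouts and 12.99 to 14.14 in the cold. For the T cell and NK cell genes it ran from 13.55 to 14.14, 13.67 to 15.33 and 12.83 to 12.86. B cell genes thus reached their highest median on control replicate 2, and T cell genes on knockout replicate 1. The median difference of B cell genes between knockouts and controls was -0.14, beside 0.63 for the T cell and NK cell genes. Between cold and control the medians were -0.96 for B cell, -0.52 for lymph node, -0.78 for macrophage, -0.42 for dendritic cell and -1.11 for pan-leukocyte genes. For the T cell and NK cell genes it was -0.72. Lower at an unadjusted p under 0.05 (limma) were 6 of 19, 2 of 12, 5 of 17, 1 of 12 and 6 of 14 tested genes. The share over all genes was 11%, and 1 macrophage gene was higher.

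Of 14 measured genes of lymph node stroma and endothelium, 12 of them tested, 0 passed and 4 were lower unadjusted, and their median deviation was 0.34, -0.29 and 0.15 on the knockouts and -0.76, -0.44 and -0.13 on the cold arrays. Glycam1, a product of the high endothelial venules through which lymphocytes enter lymph nodes, read 10.30, 12.39 and 11.39 in controls, 13.66, 10.70 and 12.65 in knockouts, and 9.21, 10.50 and 11.23 in the cold. Ccl19, a chemokine of the T cell zone, read 8.69 to 10.09, 9.65 to 10.99 and 8.21 to 8.53 in the same groups, and Cxcl13, which draws B cells into follicles, 14.16 to 15.11, 13.23 to 15.40 and 13.08 to 14.44. Knockout replicate 1 was the highest of the 9 arrays for 9 of the 14 genes, these 3 among them, and for 4 of the 19 B cell genes. It was the highest for 14 of 14 pan-leukocyte, 10 of 12 dendritic cell, 8 of 19 macrophage and 0 of 11 adipocyte genes. The share over all genes tested was 22.5%. The log2 summed level of the lymph node list ran from 14.67 to 15.67 in controls, 14.14 to 16.18 in knockouts and 13.69 to 14.87 in the cold. Cxcl13 had the highest value of that list on every array. The part of lymph node RNA in the differences of the T cell genes was not tested.

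Macrophage and dendritic cell genes also had 0 genes past the threshold, with 3 macrophage and 6 dendritic cell genes lower unadjusted. The macrophage list (19 measured, 17 tested) had a median deviation of 0.36, -0.85 and -0.16 on the knockouts and -1.10, -0.75 and -0.63 on the cold arrays, with log2 summed levels of 15.52 to 17.14 in controls, 15.32 to 17.79 in knockouts and 15.05 to 15.14 in the cold. Most of this sum was Lyz2, at 15.23 to 16.97, 15.11 to 17.68 and 14.83 to 14.91 in the same groups. Adgre1, Cd68 and Csf1r stood at -0.73, -1.67 and -1.26 between cold and knockout. Flt3, the growth factor receptor of dendritic cells, Zbtb46 and Xcr1 stood at -1.17, -0.01 and -0.56. The dendritic list (12 measured) stood at 0.88, -0.16 and 0.24 on the knockouts, with log2 summed levels of 12.40 to 13.87 there, 12.59 to 12.93 in controls and 12.01 to 12.10 in the cold. The 14 pan-leukocyte genes, such as Ptprc (CD45), Cd52 and Cd53, stood at 1.06, -0.63 and 0.42 on the knockouts and -1.22, -1.10 and -0.97 in the cold, with 0 past the threshold and 13 lower unadjusted. Their log2 summed levels were 14.59 to 16.01 in controls, 14.60 to 16.60 in knockouts and 13.89 to 14.21 in the cold.

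The median deviation of 11 measured adipocyte genes was -0.41, 0.09 and -0.18 on knockout replicates 1, 2 and 3. On the cold arrays it was 0.09, 0.06 and 0.03. Of the 11, 0 passed, and 3 were higher unadjusted between cold and knockout, against 10.1% of all genes. Adipoq, the adipokine adiponectin, read 14.70, 14.76 and 14.72 in knockout replicates 1, 2 and 3, nearly level. Plin1, the lipid droplet coat protein, read 15.68, 16.45 and 16.12 on the same arrays, and Lep, which encodes leptin, 11.24, 13.90 and 12.89, both lowest on replicate 1. Of 10 thermogenic genes 7 passed as higher in the knockouts (0.225% of all genes) and 8 in the cold (1.32%, limma adjusted p under 0.05). All 10 were higher than in controls in both groups, with no overlap between arrays. Their median deviation was 2.56, 5.51 and 4.66 on knockout replicates 1, 2 and 3. The knockout array with the highest T cell genes thus had the lowest thermogenic genes of the 3. The controls went the other way, with both sets in the same order. On control replicates 1, 2 and 3 the thermogenic genes stood at -0.37, 0.39 and 0.07. The T cell and NK cell genes stood at -0.20, 0.24 and -0.02 there. A link between them was not tested. On the cold arrays the thermogenic genes stood at 3.88, 3.67 and 3.29. Fabp3, Ucp1, Cox7a1 and Elovl3 stood at 6.97, 6.61, 5.82 and 6.61 between cold and control. The part of cell composition in these differences was not tested.

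**Figure D4:**
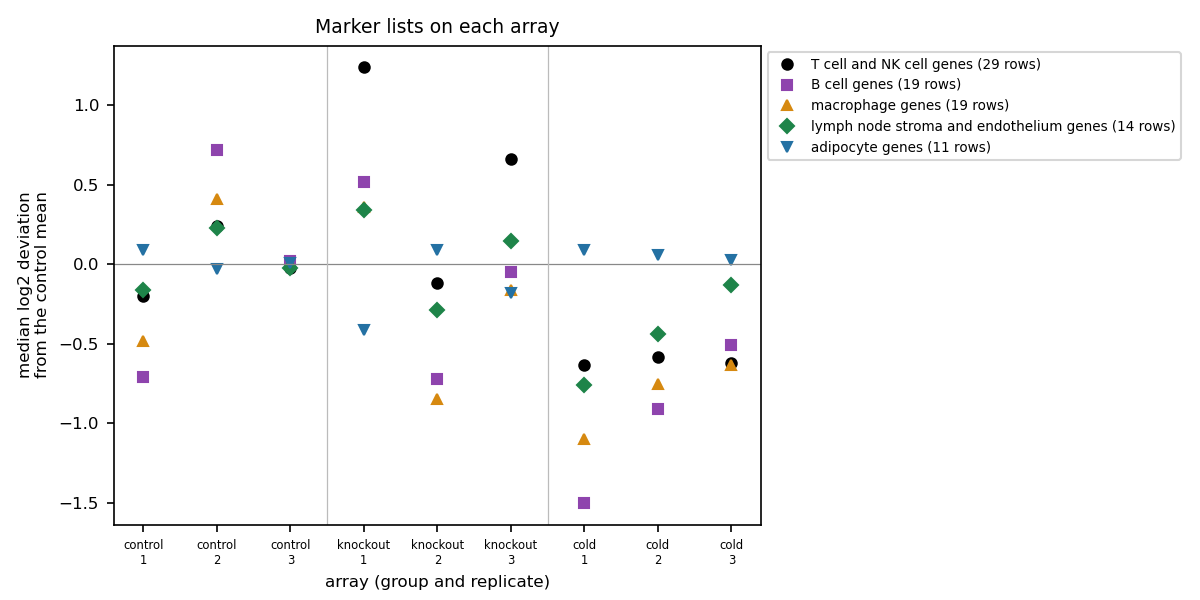
Median log2 deviation from the control mean on each array for the T cell and NK cell genes and 4 marker lists, with the number of rows in the legend. The T cell and NK cell genes peak on knockout replicate 1 (1.24) and the B cell genes on control replicate 2 (0.72), while adipocyte genes are lowest on knockout replicate 1 (-0.41).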

How the data were processed

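Total RNA of 9 samples was hybridised to 1 array each. The authors deposited log2 values for 72688 rows, made with Affymetrix Expression Console per the submitters' processing notes. The sources used here give no version, summarisation, normalization or build, and the log2 scale was taken from the values. Rows were named through the platform annotation: 31051 transcript clusters name 1 symbol, 1534 several and 33185 none, and 1439 symbols were updated through the Entrez ID with RefSeq. The highest row of a gene by its mean of 9 arrays was kept, and genes with a mean of at least 5.31, the median of all row means, were tested (16898).

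R 4.3.3 with limma 3.58.1 (lmFit, eBayes) fitted 3 group means over the 9 arrays, two-sided, with Benjamini-Hochberg adjustment over all genes tested, 6 residual and 1.23 prior degrees of freedom, and a threshold of 0.05. The fit was tested on simulated data. List medians are over all measured genes, with no test, and the summed level is the log2 of the sum of unlogged values. The members and all lists were chosen with earlier results of these data known. Named are all members, and of each list the genes that passed (at most 4) or otherwise its first 3 measured genes. Pparg, which stands in 2 lists, and Lyz2, the highest macrophage gene, are named as well. The alternatives were other filters, row choices, normalizations and variance models, the 2 groups alone, a replicate block, and leaving arrays out.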

Additional observations from a re-analysis of the deposited data

How the results depend on the processing

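With 3 arrays a group, the medians of the members kept their sign in the 13 alternatives for which they were computed. They ran from 0.26 to 0.92 between knockouts and controls, -0.75 to -0.57 between cold and control, and -1.70 to -1.05 between cold and knockout. They were not computed with array weights, which also change the differences. Calls depended on the setting. Same-numbered arrays did not deviate together (correlations from -0.461 to 0.0838 over genes), so the replicate block is no pairing. Leaving out 1 array at a time gave 0 to 1, 0 to 4 and 0 to 25 members in the 3 comparisons. Over all genes it gave 0 to 834, 23 to 982 and 14 to 2694. Between cold and knockout the count of 3 (2.4% of all genes) became 10 of the 19 members still tested with a filter at the 75th percentile of row means (7.16% of all genes), 5 with quantile normalization (3.23%), 7 with arrays centred on their median (3.49%), 1 with the 2 groups alone (2.08%), 0 with a replicate block and 0 without the 3 middle arrays (control replicate 3, knockout replicate 3 and cold replicate 2). Between cold and control it was 11 with the 2 groups alone, as the share of all genes went from 1.51% to 7.97%. Array weights gave 27, 24 and 27, but their estimation stopped before it converged, and they called 11818, 8973 and 9973 of all genes. Over all genes the counts of 62, 255 and 405 became 14, 130 and 222 without a filter and 1, 42 and 36 with the replicate block, and ranged from 0 upward in the other alternatives (limma, without the 3 middle arrays: 0 in each, beside 689, 788 and 980 at an unadjusted p under 0.05). Single members changed sign in 2 cases, both between knockouts and controls. Gzma, at -0.08, was 0.33 with array weights, 0.17 without control replicate 2 and 0.19 without knockout replicate 2 (-0.27 to 0.19 without 1 array). Klrb1c, at 0.04, was -0.0023 with array weights and -0.05 without knockout replicate 1 (-0.05 to 0.09 without 1 array). For Il7r, Trat1 and Dapl1 between cold and knockout the adjusted p ran from 1.46e-05 to 0.67, 4.83e-06 to 0.67 and 2.07e-05 to 0.67 over the alternatives in which each was tested. The cause of these shifts was not tested.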

Other observations

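Chemokines and cytokines that attract or sustain T cells were read from a further list. Of 14 measured and 13 tested, 0 passed in any comparison (limma), 4 were lower and 1 higher between cold and knockout at an unadjusted p under 0.05, and the median differences were 0.16 between knockouts and controls and -0.13 between cold and knockout. The interferon-induced CXCR3 ligands Cxcl9, Cxcl10 and Cxcl11 stood at -0.50, 0.37 and -0.12 between knockouts and controls. Cxcl9 read 13.34, 12.56 and 10.95 in cold replicates 1, 2 and 3 against 11.94 to 12.46 in controls, so the cold arrays lay on both sides of the controls.

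Genes of group 2 innate lymphoid cells, which act in beige fat formation, were measured for 8 of 12 list members, 2 of them (Icos and Il2ra) among the T cell genes above. Their median difference was -0.04 between knockouts and controls and -0.08 between cold and control, with 0 of 3 tested past the threshold of the limma fit and 2 lower and 1 higher between cold and knockout at an unadjusted p under 0.05. The 2 lower were Icos and Il2ra, already counted as members, and the 1 higher was Rora. Rora, also expressed in adipose stroma, read 9.23, 9.19 and 9.30 in the cold and 8.40, 8.75 and 8.63 in the knockouts, a difference of 0.64 (limma adjusted p = 0.0634). Il5 and Il13 lay below the filter on all arrays, at 4.39 to 4.78 and 4.48 to 4.66. Of 7 measured genes of gamma delta T cells 0 of the 4 tested passed (limma; 1 higher between cold and knockout at an unadjusted p under 0.05), with a median difference of -0.01 between knockouts and controls. Sox13 and Il23r differed by -0.08 and 0.13 between knockouts and controls, and Il17a, below the filter, lay between 3.65 and 3.91.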
